A study of Mus musculus with 10 samples.

Results

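Nicotinamide adenine dinucleotide (NAD) carries electrons between metabolic enzymes and is also used up as a substrate by sirtuins and by the glycohydrolase CD38. The genes described here are 10 that make, use or break down NAD, namely Nampt, Nmrk1, Nmrk2, Nmnat1, Nmnat3, Cd38, Sirt1, Sirt3, Sirt5 and Sirt6. They were chosen by name, with earlier results of these data known, as 10 of the 55385 genes in the count table. All 10 passed the filter on low counts that left 18491 genes to test. RNA came from the left ventricle of mice given in the labels as C56Bl6, with 5 libraries from mice on a standard diet (Control) and 5 from mice that received L-NAME and high-fat food over 6 weeks (HFpEF). L-NAME inhibits nitric oxide synthase, and with the high-fat diet it is used as a mouse model of heart failure with preserved ejection fraction. No allele or transgene is named for either group. Ages and sexes of the mice, the time of day of harvest, and whether each library is a separate mouse are not given in the sources used here, so a p-value here weighs a difference against the spread over these libraries, which may be technical.

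Most NAD in the heart is rebuilt from nicotinamide, the product left when NAD is consumed. NAMPT joins nicotinamide to a ribose phosphate to give nicotinamide mononucleotide, the rate-limiting step of this salvage route. The nicotinamide riboside kinases NMRK1 and NMRK2 reach the same mononucleotide from the riboside, and the NMNAT enzymes turn it into NAD, NMNAT1 in the nucleus and NMNAT3 in mitochondria. Sirtuins remove acyl groups from proteins at the cost of NAD: SIRT1 and SIRT6 act largely in the nucleus and SIRT3 and SIRT5 in mitochondria.

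Library totals lay between 31286355 and 46108710 counts, with Control 4 and Control 5 the deepest. Transcripts of the mitochondrial genome took 33.6% to 37.5% of counts in Control and 36.2% to 38.5% in HFpEF. The labelled tissue was checked against its markers: 8 cardiomyocyte genes, among them Myh6 and Ttn, summed to 68641 to 72972 counts per 1000000 (CPM) in Control and 70691 to 75620 in HFpEF. The 6 skeletal muscle markers summed to at most 0.814 CPM and the 5 adipocyte markers to at most 1.04 CPM in any library. In bulk tissue, fewer cells of a type and less RNA per cell cannot be told apart.

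In HFpEF ventricles, Nampt and Nmnat1 were the members that rose, by 1.22-fold and 1.25-fold. Values are CPM at library sizes scaled by TMM, and fold changes are HFpEF over Control. TMM factors were 1.00 to 1.09 in Control, 1.02 in HFpEF 1 and 0.929 to 0.969 in HFpEF 2 to 5. Smaller factors raise CPM, so fold changes from unscaled totals would be lower for every gene. No fit without such scaling was run, so which members pass the threshold may depend on it. A gene was called where edgeR's quasi-likelihood test gave it a Benjamini-Hochberg adjusted p, taken over all genes tested, below 0.05. By that rule 2 of the 10 members were higher, against 3.24% of all genes tested. As the list was chosen with earlier results known, these counts are no test of it. None was lower by edgeR (0 of 10, also 0 by DESeq2 and by limma-voom, and 1 at an unadjusted p below 0.05), against 2.09% of all genes. In either direction 5.33% of all genes were called. The median log2 fold change of the 10 members was -0.02, beside -0.01 over all genes tested.

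**Figure D1:**
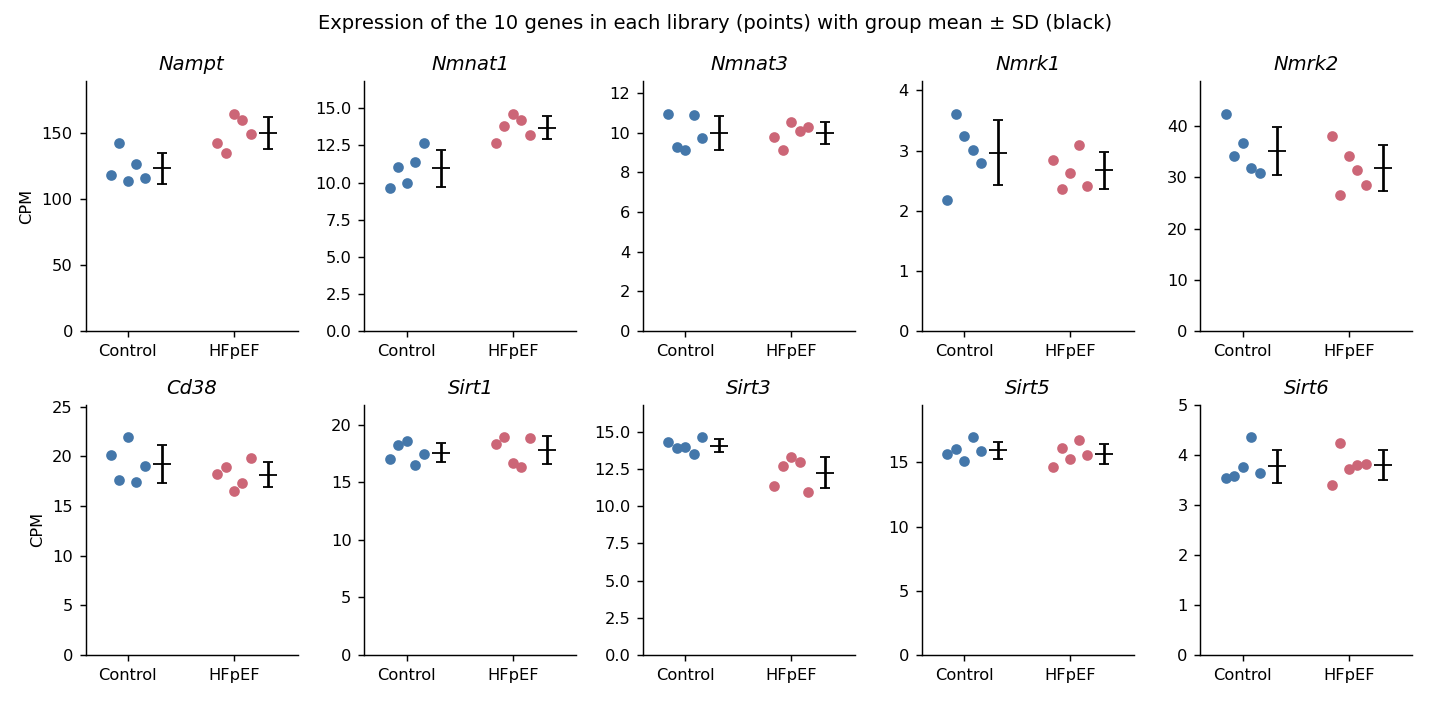
CPM (vertical axes, from 0) of the 10 genes in each of the 5 Control and 5 HFpEF libraries, drawn as points, with the mean and SD in black. Nampt and Nmnat1 sit higher in HFpEF with some overlap, Sirt3 sits lower without overlap, and the other 7 genes share their range between the groups.

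The salvage enzyme gene Nampt (ENSMUSG00000020572.8; mm10 chromosome 12, 32819545 to 32853349, plus strand, protein-coding) stood at 118, 142, 114, 127 and 116 CPM in Control 1 to 5. In HFpEF 1 to 5 it stood at 142, 135, 165, 159.6 and 149.6 CPM. Control 2 was the high Control library, level with HFpEF 1 and above HFpEF 2, so the groups overlapped, while the other 4 Control libraries were below all 5 HFpEF libraries. The mean went from 123 ± 11.7 to 150.2 ± 12.3 CPM (SD, n = 5), a log2 fold change of 0.28 ± 0.07 (SE; 95% interval 0.14 to 0.43; edgeR adjusted p = 0.0267). The call was kept in 5 of the 10 fits that left out 1 library and ended without Control 1, Control 3, HFpEF 3, HFpEF 4 or HFpEF 5 (adjusted p up to 0.0787). In each of the 10 fits the direction was the same, with log2 fold changes from 0.25 to 0.35.

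Nampt is a known target of the CLOCK and BMAL1 factors, which bind the E-box CACGTG, so the stretch ahead of its start was read. The 250 bases before the RefSeq start of Nampt (GRCm38.p6, the mm10 assembly, chr12:32820085-32820334, plus strand) are shown beside those of Sirt1 (chr10:63339036-63339285, minus strand), whose window was the single one among the members with such a match. Both are written 5′ to 3′ on the strand of the gene, and capitals mark E-boxes. GENCODE M21 also lists 1 longer transcript of each gene that starts farther upstream, so both stretches lie inside the gene bounds given here.
Nampt: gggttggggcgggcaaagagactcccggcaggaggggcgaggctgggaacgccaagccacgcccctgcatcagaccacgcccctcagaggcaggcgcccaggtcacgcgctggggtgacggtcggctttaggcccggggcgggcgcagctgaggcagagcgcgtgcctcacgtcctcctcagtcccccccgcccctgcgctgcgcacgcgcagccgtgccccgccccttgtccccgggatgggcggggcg
Sirt1: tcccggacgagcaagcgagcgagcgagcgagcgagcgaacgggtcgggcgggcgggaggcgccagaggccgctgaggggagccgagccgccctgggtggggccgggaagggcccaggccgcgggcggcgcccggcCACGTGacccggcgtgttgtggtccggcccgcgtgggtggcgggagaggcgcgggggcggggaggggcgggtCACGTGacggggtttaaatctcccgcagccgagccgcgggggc

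The Nampt stretch is 75.6% G and C with 27 CG pairs and the Sirt1 stretch 79.2% with 39, while the median over all RefSeq promoters is 52.4% with 6. The search ran on both strands over windows from 250 bases before to 50 after each start, for the E-box, the D-box TTATGTAA, the FoxO site GTAAACA and the ERR site TCAAGGTCA. These motifs do not overlap in the member windows. Of 32851 windows, 7.15% hold the E-box, 0.938% the D-box, 3.65% the FoxO site and 0.423% the ERR site. All 10 members had at least 1 window, and Sirt1 held the sole matches, 2 E-boxes that begin 115 and 43 bases before its start. A match is a string of letters and not a binding site, and its absence says only that these letters are not in this window. Whether clock factors act on Nampt or Sirt1 in these ventricles was not tested.

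Neither riboside kinase was called. Nmrk2, the kinase gene most expressed in striated muscle (ENSMUSG00000004939.7; chromosome 10, 81198170 to 81202051, minus strand), stood at 42.5, 34.1, 36.6, 31.8 and 30.9 CPM in Control 1 to 5 and at 38.1, 26.7, 34.3, 31.4 and 28.6 CPM in HFpEF 1 to 5. The ranges overlapped over most of their length, with Control 1 and HFpEF 1 the highest of their groups. Its log2 fold change was -0.14 ± 0.11 (SE, 95% interval -0.37 to 0.09; edgeR adjusted p = 0.486), which leaves room for values between 0.772-fold and 1.06-fold. The antisense gene Atcayos covers 14.6% of the exonic bases of Nmrk2. Since no source used here says whether counting used strand, reads there cannot be told apart. Atcayos itself was not called (-0.15 ± 0.10, edgeR adjusted p = 0.428).

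Nmrk1, the broadly expressed kinase (ENSMUSG00000037847.14; chromosome 19, 18631950 to 18652428, plus strand), was the member with the fewest counts, 73 to 140 per library. It stood at 2.17, 3.61, 3.24, 3.00 and 2.79 CPM in Control 1 to 5 and at 2.85, 2.37, 2.63, 3.10 and 2.41 CPM in HFpEF 1 to 5. Control 1 was the lowest library of all and Control 2 the highest, so the Control range enclosed that of HFpEF. The log2 fold change was -0.15 ± 0.13 (SE; edgeR adjusted p = 0.584). Its 95% interval, -0.43 to 0.14, is the widest among the members.

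Because NMRK2 and NAMPT open separate routes to one product, their counts were set against each other within each library, a ratio that library scaling does not touch. The log2 ratio of Nmrk2 to Nampt counts was -1.47, -2.06, -1.64, -1.996 and -1.90 in Control 1 to 5. In HFpEF 1 to 5 it was -1.90, -2.34, -2.27, -2.34 and -2.39. HFpEF 2 to 5 lay below every Control library, and HFpEF 1 lay within the Control range. The mean went from -1.81 ± 0.25 to -2.25 ± 0.20 (SD, n = 5), a difference of -0.43 (exact permutation test over 252 splits, two-sided p = 0.0317, where the smallest possible is 0.00794). Without HFpEF 2, HFpEF 3, HFpEF 4 or HFpEF 5 the exact p rose to between 0.0556 and 0.0714, with differences from -0.43 to -0.40. The ratio holds the rise of Nampt described above and is not separate evidence of it.

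**Figure D2:**
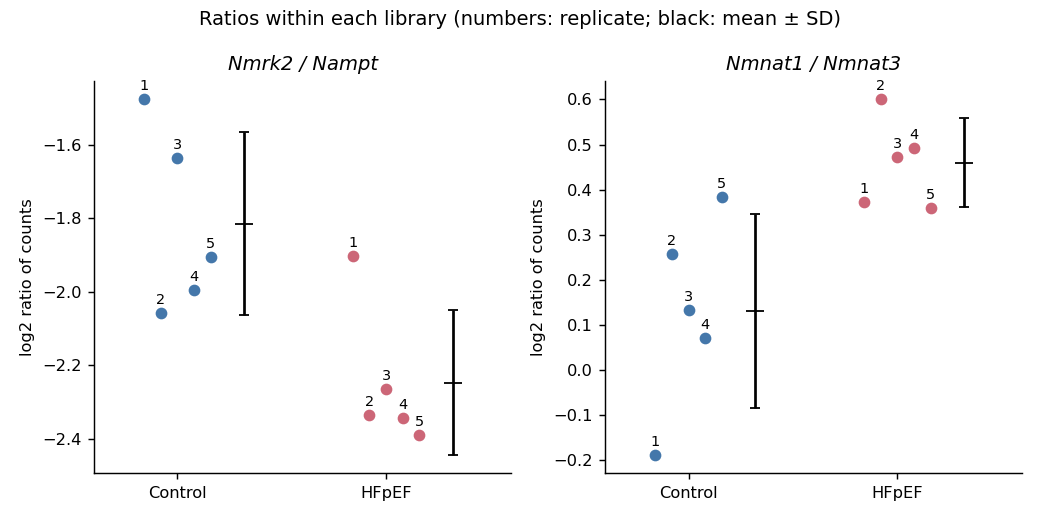
Log2 ratio of counts within each library (vertical axes) for Nmrk2 to Nampt at left and Nmnat1 to Nmnat3 at right, with replicate numbers beside the points and mean ± SD in black. At left HFpEF 2 to 5 lie below all Control libraries and HFpEF 1 at -1.90 does not, and at right Control 5 at 0.38 reaches into the HFpEF range.

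Of the NMNAT enzyme genes, the nuclear form rose and the mitochondrial form was not called. Nmnat1 (ENSMUSG00000028992.13; chromosome 4, 149467572 to 149485202, minus strand) stood at 9.61, 11.1, 9.99, 11.4 and 12.7 CPM in Control 1 to 5 and at 12.6, 13.8, 14.6, 14.2 and 13.2 CPM in HFpEF 1 to 5. Control 5 exceeded HFpEF 1 by a narrow margin, and the other 4 Control libraries were below every HFpEF library. The mean went from 10.95 ± 1.22 to 13.7 ± 0.789 CPM (SD, n = 5), a log2 fold change of 0.32 ± 0.08 (SE; 95% interval 0.15 to 0.48; edgeR adjusted p = 0.0251). The call was kept in 6 of the 10 fits that left out 1 library and ended without Control 1, Control 3, HFpEF 3 or HFpEF 4 (adjusted p up to 0.0731). Without Control 4 and Control 5 together, the deepest libraries, the log2 fold change was 0.42 (adjusted p = 0.00763), whereas that of Nampt was 0.27 and lost its call (adjusted p = 0.0887).

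Nmnat1 starts 27 bases from Lzic, which runs the other way on the plus strand. Lzic, chosen for its position, was not called (-0.04 ± 0.06, edgeR adjusted p = 0.801), with 7.91 ± 0.425 CPM in Control and 7.70 ± 0.241 in HFpEF (SD, n = 5). For this reason the bases ahead of Nmnat1, which hold the first exons of Lzic, are not printed. RefSeq gives Nmnat1 2 starts, whose stretches are 69.2% and 67.6% G and C with 24 and 23 CG pairs.

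**Figure D3:**
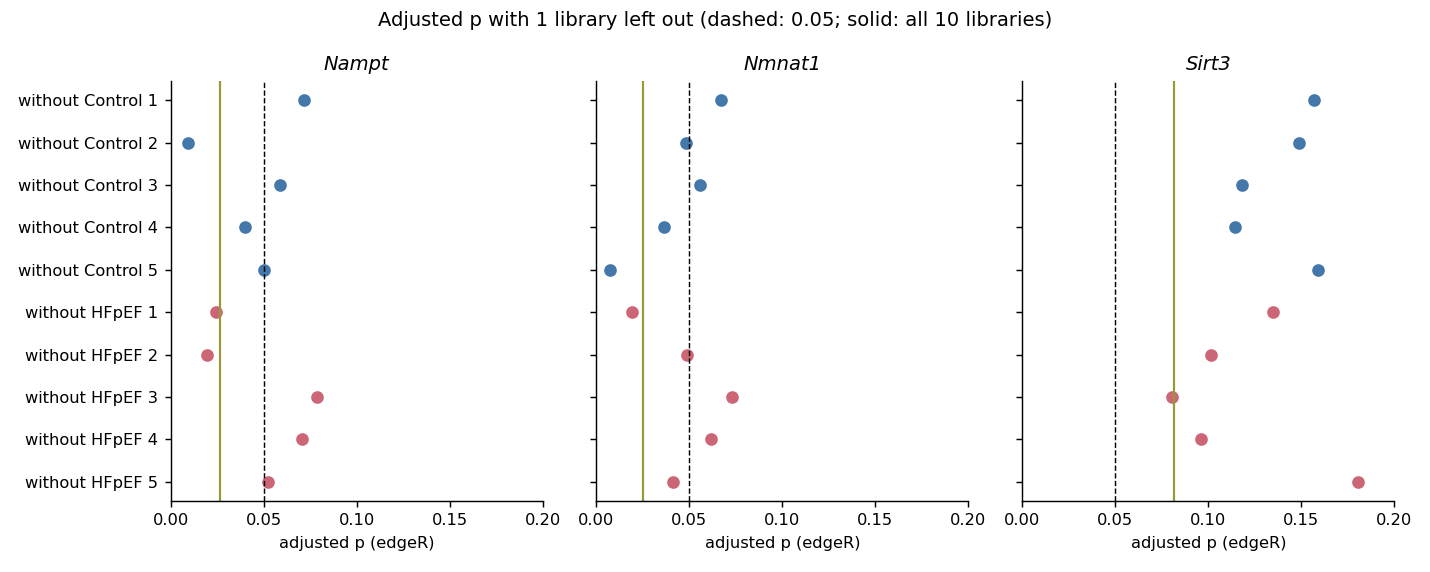
edgeR adjusted p (horizontal axes) of Nampt, Nmnat1 and Sirt3 in fits without 1 library (blue points leave out a Control library, red points an HFpEF library), with the value from all 10 libraries as a solid line and 0.05 dashed. Nampt crosses the dashed line in 5 fits and Nmnat1 in 4, and Sirt3 stays to its right in all 10.

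Nmnat3 (ENSMUSG00000032456.13; chromosome 9, 98287435 to 98420438, plus strand) stood at 10.9, 9.27, 9.11, 10.9 and 9.72 CPM in Control 1 to 5 and at 9.77, 9.10, 10.5, 10.1 and 10.3 CPM in HFpEF 1 to 5. The groups overlapped throughout. Its log2 fold change of -0.00 ± 0.07 (SE; edgeR adjusted p = 0.981) has a 95% interval from -0.16 to 0.15, or 0.897-fold to 1.11-fold. Within libraries the log2 ratio of Nmnat1 to Nmnat3 counts lay between -0.19 and 0.38 in Control libraries and between 0.36 and 0.60 in HFpEF libraries, and Control 5 alone of its group reached the HFpEF values. The third family member, the neuronal Nmnat2, had 2 to 19 counts per library and was not tested.

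Cd38 encodes the surface glycohydrolase that is a main consumer of NAD in many tissues (ENSMUSG00000029084.5; chromosome 5, 43868553 to 43912375, plus strand). It stood at 20.2, 17.6, 21.9, 17.5 and 19.0 CPM in Control 1 to 5 and at 18.2, 18.9, 16.5, 17.4 and 19.8 CPM in HFpEF 1 to 5. Control 3 was the highest library and HFpEF 3 the lowest, and the ranges overlapped between 17.5 and 19.8 CPM. The log2 fold change was -0.08 ± 0.07 (SE; 95% interval -0.23 to 0.07; edgeR adjusted p = 0.572), so values below 0.852-fold or above 1.05-fold lie outside the interval. Bst1, the neighbouring paralog with the same kind of activity, ran from 0.405 to 1.33 CPM over all libraries and was not called (0.04 ± 0.26, edgeR adjusted p = 0.953).

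CD38 is known from endothelial cells and leukocytes, so their markers are given beside it. The 8 endothelial markers, 2 of which were lower (Egfl7 and Emcn), summed to 753 to 891 CPM in Control and 695 to 774 in HFpEF. Of all genes tested 2.09% were lower. The 8 macrophage markers summed to 102 to 154 CPM in Control and 87.8 to 111 in HFpEF. None of the 8 was called by edgeR (0; 5 lower at an unadjusted p below 0.05, 2 lower by DESeq2 and 0 by limma-voom). All 8 had a log2 fold change below 0, with a median of -0.30, beside -0.01 over all genes tested. The 8 lymphocyte and pan-leukocyte markers summed to 13.5 to 19.8 CPM in Control and 12.6 to 21.2 in HFpEF. Of these, 4 were tested and 0 were called by edgeR, as also by DESeq2, by limma-voom and at an unadjusted p below 0.05. No marker of these 3 lists was at 0 in every library. The part of these cell types in the level of Cd38 was not tested.

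Among the sirtuins, Sirt3 was lower in every HFpEF library without passing the test. Sirt3 encodes the main deacetylase of mitochondria (ENSMUSG00000025486.17; chromosome 7, 140863666 to 140882309, minus strand). It stood at 14.3, 13.9, 14.0, 13.5 and 14.6 CPM in Control 1 to 5 and at 11.3, 12.7, 13.3, 13.0 and 10.9 CPM in HFpEF 1 to 5. The highest HFpEF library, HFpEF 3, lay just under the lowest Control library, Control 4. Such separation with HFpEF below was seen in 2.93% of all genes tested and with HFpEF above in 3.88%, and among the members in Sirt3 alone. The log2 fold change was -0.20 ± 0.06 (SE; 95% interval -0.34 to -0.07), with an edgeR adjusted p of 0.0813 that stayed above 0.05 in every alternative fit run (0.0551 to 0.181). Exons of Ric8a and Psmd13 on the opposite strand share 7% and 5.73% of its exonic bases. Psmd13, a proteasome subunit gene whose 5′ end overlaps that of Sirt3, was not called (-0.05 ± 0.06, edgeR adjusted p = 0.688).

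Sirt5, the mitochondrial desuccinylase gene (ENSMUSG00000054021.6; chromosome 13, 43365496 to 43395203, plus strand), stood at 15.6, 16.1, 15.1, 17.0 and 15.9 CPM in Control 1 to 5 and at 14.7, 16.1, 15.3, 16.7 and 15.6 CPM in HFpEF 1 to 5. The groups covered nearly the same range, and the log2 fold change of -0.03 ± 0.05 (SE; edgeR adjusted p = 0.847) had a 95% interval from -0.14 to 0.09.

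The nuclear sirtuin genes were not called either. Sirt1, the best-studied deacetylase of transcription factors, FoxO factors among them (ENSMUSG00000020063.16; chromosome 10, 63319005 to 63381704, minus strand), stood at 17.0, 18.2, 18.6, 16.5 and 17.5 CPM in Control 1 to 5. In HFpEF 1 to 5 it stood at 18.3, 18.9, 16.6, 16.4 and 18.9 CPM. HFpEF 3 and HFpEF 4 were at the low end of the joint range and the other 3 at its high end. The log2 fold change was 0.02 ± 0.06 (SE; 95% interval -0.10 to 0.15; edgeR adjusted p = 0.882), which spans 0.931-fold to 1.11-fold.

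Sirt6, a chromatin deacetylase gene (ENSMUSG00000034748.16; chromosome 10, 81621785 to 81627797, minus strand), was the other low member by counts. It stood at 3.54, 3.58, 3.77, 4.36 and 3.64 CPM in Control 1 to 5 and at 3.41, 4.24, 3.73, 3.80 and 3.83 CPM in HFpEF 1 to 5. Control 4 stood above the rest of its group and HFpEF 2 above the rest of its own. The log2 fold change was 0.01 ± 0.09 (SE; 95% interval -0.19 to 0.21; edgeR adjusted p = 0.983).

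The other 3 sirtuin genes were not called by edgeR (0 of 3; 0 by DESeq2 and by limma-voom, and 1 at an unadjusted p below 0.05). Sirt2, the mostly cytosolic deacetylase, stood at 42.3 ± 2.02 CPM in Control and 43.6 ± 2.27 in HFpEF (SD, n = 5; log2 fold change 0.04 ± 0.05, edgeR adjusted p = 0.690). Mitochondrial Sirt4 had a log2 fold change of -0.07 ± 0.07 (edgeR adjusted p = 0.627), and nucleolar Sirt7 one of -0.18 ± 0.08 (edgeR adjusted p = 0.239). All 7 sirtuin genes were thus measured and none was called, by edgeR.

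**Figure D4:**
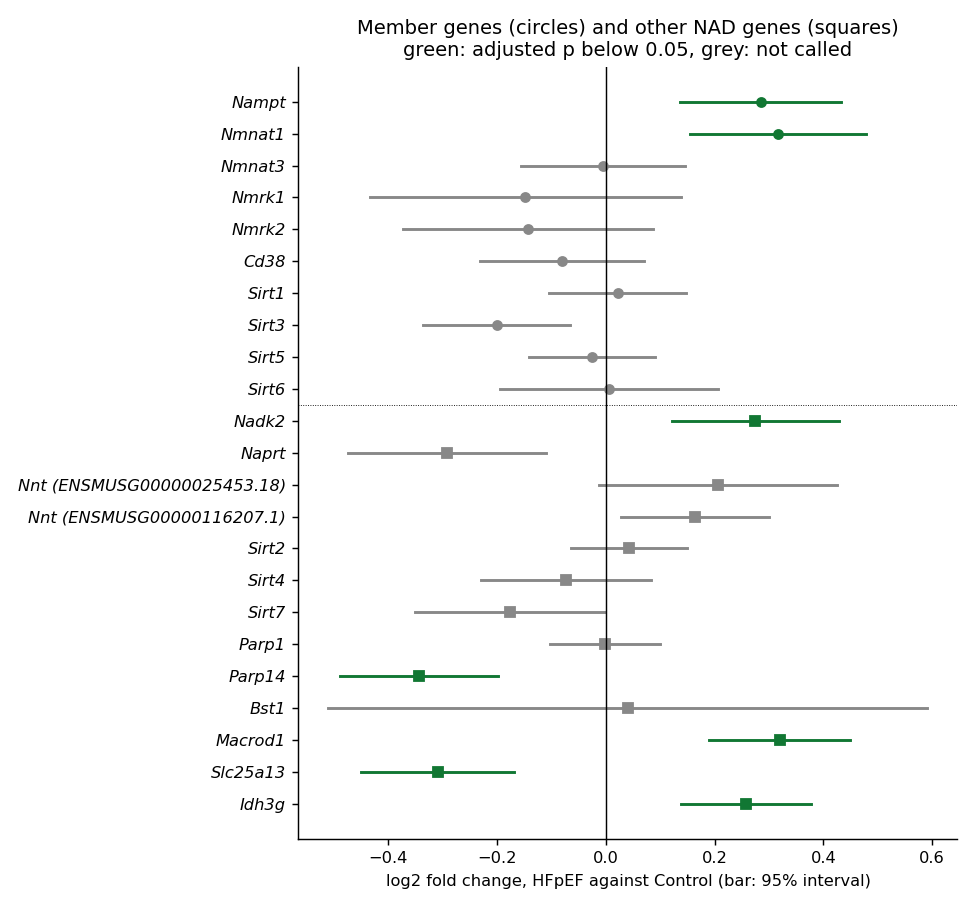
Log2 fold change, HFpEF against Control, with 95% interval (horizontal axis) for the 10 members (circles) and for other NAD genes named in the text (squares), green where the adjusted p was below 0.05. Nampt and Nmnat1 are the green circles at 0.28 and 0.32, Sirt3 at -0.20 is grey, and the remaining circles lie between -0.15 and 0.02.

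Levels of different genes were compared per length, as CPM per kilobase, with 2 lengths because the length in use in each library is not known. Over all annotated exonic bases (GENCODE M21), Nampt was the highest member, at 24.4 ± 2.31 CPM per kilobase in Control and 29.7 ± 2.43 in HFpEF (SD, n = 5). Nmrk2 followed at 19.0 ± 2.50 and 17.2 ± 2.44. Control libraries of this pair came within reach of each other (Nampt from 22.5, Nmrk2 up to 22.9), whereas in HFpEF they were apart (Nampt from 26.6, Nmrk2 up to 20.5). The next levels in Control, Cd38 at 4.94 ± 0.480 and Nmnat1 at 3.61 ± 0.402, were far below by this length. In HFpEF these were 4.67 ± 0.329 and 4.51 ± 0.260 CPM per kilobase and did not differ beyond their spread.

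Sirt1 came next at 3.29 ± 0.159 CPM per kilobase in Control, then Sirt5 at 2.62 ± 0.109, Sirt3 at 2.35 ± 0.0708, Nmnat3 at 2.00 ± 0.174, Sirt6 at 1.36 ± 0.120 and Nmrk1 at 0.803 ± 0.146. In HFpEF, Sirt3 at 2.05 ± 0.174 and Nmnat3 at 1.99 ± 0.112 overlapped. With the median length of protein-coding transcripts the order at the ends was the same, Nampt and Nmrk2 first and Sirt6 and Nmrk1 last in both groups. The middle was not: Sirt3, whose exonic bases number 5973 and whose median coding transcript 1100, moved from rank 7 to rank 3, at 12.8 ± 0.384 CPM per kilobase in Control. Nmrk2 was at 19.0 ± 2.50 in Control by this length too, so the gap below the leading pair was smaller. The order of the 6 members between the ends, and the size of that gap, are therefore not settled by these data.

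**Figure D5:**
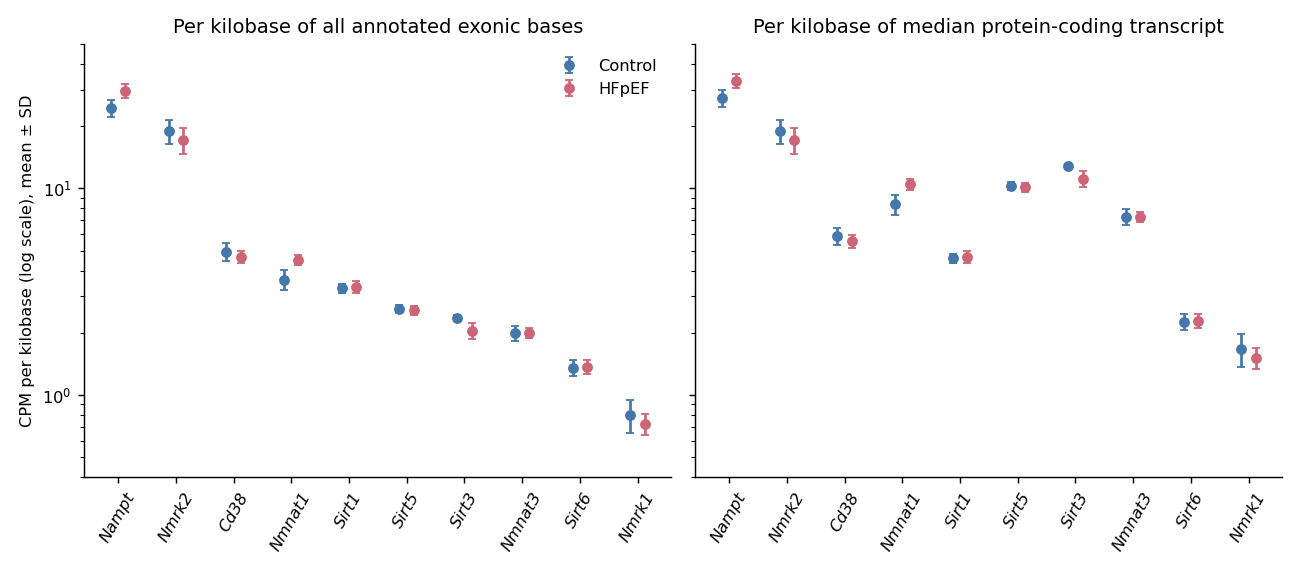
CPM per kilobase (log axis, mean ± SD over 5 libraries a group) of the 10 genes, using all annotated exonic bases at left and the median protein-coding transcript at right, in the same gene order. Nampt and Nmrk2 lead and Nmrk1 is lowest on both sides. Every gene but Nmrk2 is higher at right, and Sirt3, Sirt5 and Nmnat3 shift upward the most on the log axis.

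Other genes of NAD synthesis, phosphorylation and transport were taken from a list of 21, of which 13 were tested as 14 table entries. Of these, 1 rose and 0 fell by edgeR (0 lower also by DESeq2 and limma-voom, and 2 lower at an unadjusted p below 0.05), with a median log2 fold change of 0.03. For all genes tested the shares were 3.24% higher and 2.09% lower. The riser was Nadk2, the mitochondrial NAD kinase that makes NADP, which averaged 37.0 ± 4.00 CPM in Control and 44.8 ± 3.43 in HFpEF (SD, n = 5; log2 fold change 0.27 ± 0.07, edgeR adjusted p = 0.0383). Control 2, at 42.9 CPM, lay above HFpEF 2 and HFpEF 5, as Control 2 lay above HFpEF 2 for Nampt. The call of Nadk2 was kept in 4 of the 10 fits without 1 library, and ended without Control 1, Control 3, Control 5, HFpEF 1, HFpEF 3 or HFpEF 4 (adjusted p up to 0.105). With the deepest pair, Control 4 and Control 5, left out it was lost as well (adjusted p = 0.0918).

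Naprt opens the route from nicotinic acid, and is named here after its values were seen. Control libraries held 4.67 to 5.88 CPM of it and HFpEF libraries 4.02 to 4.50, without overlap, and it missed the threshold (log2 fold change -0.29 ± 0.09, edgeR adjusted p = 0.0619). At a minimum count of 50 Naprt was called lower (-0.30, adjusted p = 0.0442), and over all alternatives its adjusted p ran from 0.0442 to 0.170. An overlapping gene, Eef1d, shares 11.8% of its exonic bases. Nnt, the transhydrogenase that passes electrons from NADH to NADP, has 2 entries in the table that share all exonic bases of the smaller one, so the split of reads between them is uncertain. The entries were at 128 ± 21.1 and 285 ± 24.7 CPM in Control and 148 ± 12.6 and 319 ± 20.6 in HFpEF (SD, n = 5), and neither was called (edgeR adjusted p = 0.272 and 0.159). Of the listed genes of the route from tryptophan, Haao, Ido1, Ido2, Kynu and Qprt were under the filter. Kmo, Afmid, Acmsd and Tdo2 were tested and not called.

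Of 26 other enzymes that break down NAD, clear nicotinamide or remove ADP-ribose, 25 were tested, and 1 rose and 1 fell. Their median log2 fold change was -0.00, and of all genes tested 3.24% rose and 2.09% fell. Macrod1, a mitochondrial hydrolase that removes ADP-ribose from proteins, rose without overlap, with means of 26.5 ± 1.85 CPM in Control and 33.1 ± 2.31 in HFpEF (SD, n = 5; log2 fold change 0.32 ± 0.06, edgeR adjusted p = 0.00715). Parp14, a mono-ADP-ribosyltransferase that interferon induces, fell from 62.8 ± 4.41 to 49.5 ± 4.81 CPM without overlap (log2 fold change -0.34 ± 0.07, edgeR adjusted p = 0.00913). Macrod1 and Parp14 kept their calls whichever of the 10 libraries was left out, unlike Nampt and Nmnat1. Parp1, the nuclear polymerase that spends most NAD under DNA damage, stood at 23.0 ± 0.836 CPM in Control and 23.0 ± 0.786 in HFpEF (log2 fold change -0.00 ± 0.05, edgeR adjusted p = 0.993; 95% interval -0.10 to 0.10).

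Genes of the NADH shuttles and of NAD-linked dehydrogenases counted 1 higher and 1 lower of 15 by edgeR, with a median log2 fold change of 0.06. DESeq2 called 1 higher and 2 lower, and limma-voom 1 higher and 1 lower. At an unadjusted p below 0.05 by edgeR, 4 were higher and 3 lower. Among all genes tested, 3.24% were higher and 2.09% lower. Idh3g, a regulatory subunit of the NAD-dependent isocitrate dehydrogenase, rose, with means of 209.5 ± 11.3 CPM in Control and 251 ± 16.8 in HFpEF (SD, n = 5; log2 fold change 0.26 ± 0.06, edgeR adjusted p = 0.0146). Slc25a13, the aspartate-glutamate carrier citrin of the malate-aspartate shuttle, fell from 78.8 ± 6.46 to 63.6 ± 4.97 CPM (log2 fold change -0.31 ± 0.07, edgeR adjusted p = 0.0130). Leaving out any 1 library ended neither call, but without Control 4 and Control 5 together that of Slc25a13 was lost (-0.26, adjusted p = 0.0701).

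Clock genes were read beside Nampt because it is under clock control. Of 19 tested, 2 rose and 3 fell, with a median log2 fold change of -0.06. Over all genes tested, 3.24% rose and 2.09% fell. Ciart went from 13.7 ± 1.16 to 5.75 ± 0.640 CPM, Dbp from 72.9 ± 6.36 to 49.1 ± 3.64 CPM and Nr1d1 from 124 ± 10.9 to 79.5 ± 11.4 CPM (SD, n = 5; edgeR adjusted p = 1.96e-06, 0.000210 and 0.00101). On the opposite strand, exons of Sphk2 share 18% of the exonic bases of Dbp, and those of Thra 8.55% of Nr1d1. As for Nmrk2, reads there cannot be told apart. Among the risers was Rora, a nuclear receptor gene of the clock (log2 fold change 0.18 ± 0.05, edgeR adjusted p = 0.0372). With 1 library left out, Rora kept its call in 4 of 10 fits (adjusted p up to 0.0952), and it lost the call with no filter on low counts (0.0605) and without Control 4 and Control 5 together (0.0643). The part of these clock genes in the rise of Nampt was not tested.

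The genes most like the risers were sought among 11173 named genes whose log2 CPM averaged 1 or more, by the correlation of deviations from the group means over the 10 libraries. For Nampt these were Klhl24 (r = 0.95), Nsmce4a (0.91) and Rfc1 (0.91), and for Nmnat1 they were Ago2 (0.96), Mfsd1 (0.96) and Rars (0.96). None of the 6 was called by edgeR (0; adjusted p from 0.0580 to 0.938). Mfsd1, whose groups did not overlap, was called lower at a minimum count of 50 (log2 fold change -0.22, edgeR adjusted p = 0.0376), and Ago2 higher without Control 4 and Control 5 (0.23, adjusted p = 0.0455). The libraries share depth and scaling, and the highest of so many correlations over 10 libraries is high by selection.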

How the data were processed

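Total RNA of 10 left ventricle libraries, 5 Control and 5 HFpEF, entered as 1 table of genes. It holds expected counts per gene as deposited by the authors, all whole numbers, so rounding changed 0 values. Per the submitters' processing notes, Bowtie2 2.1.0, RSEM 1.2.15 and mm10 were used; strand setting and annotation release are not given in the sources used here. Reads that RSEM shares out between overlapping genes make such counts uncertain. The 92 spike-in entries, all at 0, were left out.

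Genes passing edgeR's filterByExpr (minimum count 10) were tested with glmQLFit and glmQLFTest after TMM scaling (edgeR 4.0.16, R 4.3.3), on group alone, with Benjamini-Hochberg adjustment over all genes and a threshold of 0.05. Alternatives were RLE size factors, no filter, a minimum count of 50, DESeq2 1.42.0, limma-voom (limma 3.58.1), a replicate block and leaving out each library. Leaving out Control 4 and Control 5 together was added after seeing the data. Totals of 31286355 to 46108710 counts left the members with 73 counts or more per library. On simulated data for this comparison (18181 genes), 16.1% of 1.2-fold, 56.2% of 1.5-fold and 88.9% of 2-fold changes were recovered, and 2.75% of calls were false. Only 56, 73 and 63 genes were changed by these folds, and 109 genes were called, against 985 in the real data. With fewer calls the adjusted p is stricter, so these shares are not the recovery of the real comparison.

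The members and gene lists were chosen with earlier results of these data known. Named genes were all members; Nnt, Nmnat2, Sirt2, Sirt4, Sirt7, Parp1 and Bst1; of each other NAD or clock list up to 4 called genes with the smallest p, or else the gene with the smallest p; and the 3 genes most like each called member. Genes named for their position (Lzic, Psmd13, Atcayos) and Naprt were chosen after values were seen. A called clock gene is not reported here. Lengths, coordinates and overlaps come from GENCODE M21, which held 55144 of the 55385 identifiers without version; sequences come from RefSeq (GRCm38.p6). The smallest p of the exact permutation test is 0.00794.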

Additional observations from a re-analysis of the deposited data

Results flagged for a closer look

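For a library far from the rest of its group, 22 sets of 5 values were checked (each of 11 measures in each group), and 2 sets held one, where chance gives about 1 in 20. Sirt6 stood at 4.36 CPM in Control 4, a gap to the next Control library of 0.718 of the group's whole range. The log2 ratio of Nmrk2 to Nampt counts was -1.90 in HFpEF 1, a gap of 0.744 of the range.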

How the results depend on the processing

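Over the genes tested, 985 were called (599 higher, 386 lower). DESeq2 called 1448 (926 higher), and leaving out 1 library gave 554 to 1101 (352 to 684 higher, 202 to 417 lower). Replicate numbers did not pair the libraries (correlations of same-numbered libraries from -0.11 to 0.064, and libraries of 1 of the 5 numbers correlated best with each other). With the replicate block, 744 genes were called (444 higher, 300 lower) and 1 member, Nmnat1, since Nampt went to an adjusted p of 0.0651; Nadk2 (0.0717) and Rora (0.111) lost their calls too. The ratio of Nmrk2 to Nampt with the replicate block gave -0.43 (exact p = 0.0625, the smallest that 5 pairs allow). Members called higher numbered 0 to 2 without 1 library, and none was called lower (0 by edgeR) in any fit run. Without Control 4 and Control 5, 773 genes (468 higher, 305 lower) and 1 member were called. The ratio without 1 library ran from -0.52 to -0.35. Signs turned for genes near 0: Nmnat3 to 0.00076 (RLE), 0.00013 (DESeq2) and 0.028 (without that pair), Parp1 to 0.0044, 0.0033 and 0.024 in the same fits, and Bst1 to -0.044 (limma-voom). Without that pair Sirt5 was at 0.0070, Sirt1 at -0.0069 and Klhl24 at -0.0095. Without 1 library Nmnat3 ran from -0.034 to 0.035, Sirt6 from -0.036 to 0.072, Parp1 from -0.016 to 0.028, Sirt5 from -0.048 to 0.0054, Klhl24 from -0.016 to 0.050, Bst1 from -0.18 to 0.22 and Nsmce4a from -0.048 to 0.0087. The cause was not tested. Fold changes near 1.2 were mostly missed on simulated data at this depth and number of libraries, where far fewer genes changed than were called here.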

Other observations

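Marker lists not set beside a result above gave these values, where 3.24% of all genes tested rose and 2.09% fell. Of 8 cardiomyocyte markers 1 fell, Tnnt2 (log2 fold change -0.22 ± 0.05, edgeR adjusted p = 0.0185). The 5 fibroblast markers summed to 349 to 438 CPM in Control and 397 to 437 in HFpEF, and the 6 smooth muscle and pericyte markers to 691 to 806 and 746 to 853. Of these lists edgeR called 0 genes, with 2 fibroblast and 1 mural marker higher at an unadjusted p below 0.05, 1 fibroblast marker by DESeq2 and 0 by limma-voom. The 5 red cell markers, 439 to 634 CPM in Control and 411 to 711 in HFpEF, were not called (0 by edgeR, by DESeq2, by limma-voom and at an unadjusted p below 0.05). The 4 atrial markers summed to 37.2 to 58.3 CPM in Control and 15.3 to 29.3 in HFpEF without overlap, with Nppa, a natriuretic peptide gene, the 1 that fell of 2 tested.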
